A study of Mus musculus with 100 samples.

Results

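Perilipins and 4 further lipid droplet genes were described in mouse fat and adipocytes in which GPS2, which belongs to the NCoR/SMRT corepressor, had been deleted from adipocytes. The 9 genes were taken from a list by symbol (Plin1, Plin2, Plin3, Plin4, Plin5, Cidec, Fitm2, Bscl2 and Hilpda), out of 32153 genes with a measured transcript. All 9 were found in all 5 tables of the study, and all 9 passed the filter on low values in each. Messenger RNA was sequenced to ask how loss of GPS2 changes fat in chow-fed and fat-fed mice and after beta-adrenergic stimulation. Knockout was compared with wild type within a table, because each table had been normalised separately.

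The knockout and wild-type samples of every table carry the same strain label, Adipoq-Cre-Gps2flox/flox, and the genotype is given only by the letters KO or WT of the sample titles. Adipoq-Cre recombines floxed alleles in cells that express adiponectin, so the other cells of a fat pad keep GPS2. The chow table (CD) holds intra-abdominal fat of mice aged 19 weeks, with 3 knockout and 3 wild-type samples. The short high fat diet table (HFD), with 4 weeks of diet in its name, holds intra-abdominal fat at 11 weeks of age, with 4 knockout and 4 wild-type samples. The long-diet tables name 12 weeks of diet and are of mice aged 19 weeks. One of them holds intra-abdominal fat (Epi, 3 knockout and 3 wild-type samples) and the other adipocytes from intra-abdominal fat (Adipo, 2 knockout and 3 wild-type samples). The BA table holds inguinal fat at 8 weeks of age from the beta-adrenergic experiment, with 4 knockout and 4 wild-type samples. The labels name neither the agent nor its dose, and no unstimulated inguinal fat was analysed here. The labels do not say that replicates are separate animals, so p-values measure only the variation among these samples, and some of it may be technical.

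Fat cells store triglyceride in lipid droplets, which bud from the endoplasmic reticulum and are coated with proteins of the perilipin family. Perilipin 1 covers the large droplet of mature adipocytes and holds back lipolysis until adrenergic signalling phosphorylates it, while perilipin 2 and perilipin 3 coat smaller droplets in most cell types. Many of these genes are targets of the nuclear receptor PPAR gamma, and perilipin 2 and HILPDA also respond to fatty acids and to low oxygen.

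Each replicate held 29341378 to 63231688 recovered reads over the chosen transcripts, summed over its libraries, and the deposited values are read counts divided by a size factor per library, here called normalised reads. The chosen transcript of Gps2 itself overlapped between genotypes, at 272.1 to 380.6 normalised reads in knockout and 221 to 362.7 in wild type in the BA table. No source used here names the deleted exons, so this total over all exons checks nothing. The CD libraries differed in tissue content. The summed normalised reads of 6 epididymis markers were 154025, 141784 and 25.8 in CD knockout 1 to 3, against 47.7, 43735 and 3.71 in wild type 1 to 3. CD wild type 2 also held the lowest summed adipocyte markers (365859, against 867292 and 1164965 in wild type 1 and 3, and 980355 to 1432758 in knockout). Its summed skeletal muscle markers were 5619.7, where the other CD samples had 104.1 to 575.8, and CD wild type 1 had 2324 for B cell markers, where the others had 71.4 to 233.5. CD knockout 1 and 2 were nearer to each other than any other pair of replicates (a chi-square of 4.41 per degree of freedom, while the others had 11.8 to 598.2). Within a replicate, repeat libraries gave 1.04 to 1.09. The defining adipocyte markers were measured above 0 in every table. In the Adipo table the 6 endothelial markers all had higher knockout means, though 0 of them passed the test below, with sums of 12575 and 29724 normalised reads in knockout and 1767 to 3291 in wild type. The part of these contents in the results was not tested.

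The genes lie on 6 chromosomes of the GRCm38 build. Plin4 (chr17:56100591-56109803), Plin5 (chr17:56111601-56117596) and Plin3 (chr17:56277476-56292873) are neighbours on the minus strand of chromosome 17. Plin1 (chr7:79720218-79732903), Plin2 (chr4:86648386-86670060), Cidec (chr6:113424634-113435760) and Fitm2 (chr2:163466379-163472629) are also on the minus strand. Hilpda (chr6:29272488-29275446) and Bscl2 (chr19:8837467-8848683) are on the plus strand. One transcript was used per gene, and exons of other genes overlap 32.5% of the Bscl2 transcript (Gng3 and AC129217.1) and 5.72% of that of Fitm2, so some of those reads may belong to the neighbours.

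Levels were set on a common scale as RPKM, that is normalised reads per kilobase of transcript at a fixed library total. Cidec, which encodes the CIDEC protein that fuses droplets by lipid transfer, had the highest level of the 9 in intra-abdominal fat and adipocytes. It averaged 2684 ± 233.8 in CD knockout and 2117 ± 896.8 in CD wild type (SD, n = 3 each), and 3745 ± 325.2 in HFD knockout and 3186 ± 199.3 in HFD wild type (SD, n = 4 each). It ranked 14 to 23 among all tested genes, per length, in the 8 groups of these tables. Plin1 and Plin4 came next and overlapped each other in most groups, with wild-type means of 604.2 and 596.8 in CD, 814.3 and 664.8 in HFD, 609.3 and 557.9 in Epi, and 837.4 and 716.2 in Adipo. Plin2, Bscl2 and Fitm2 followed in that order. Plin3, Hilpda and Plin5 formed the low end, between 6.42 and 24.5 in the wild-type means of these 4 tables, and many of the neighbours there overlapped.

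Inguinal fat of the BA table had another order. Plin2 averaged 2162 ± 343.9 RPKM in BA knockout and 1166 ± 279.9 in BA wild type (SD, n = 4 each), at or beside the level of Cidec. Plin1 averaged 495.1 ± 66.5 in knockout and 450.2 ± 39.4 in wild type, and Plin4 only 131.9 ± 26.1 in knockout and 107.4 ± 39.3 in wild type. Plin5, which tethers droplets to mitochondria in oxidative tissue, reached 42.1 ± 12.9 in knockout and 44 ± 14.9 in wild type. These means were above those of Plin3, but the ranges of Plin5 and Plin3 overlapped in both genotypes. Depot, age and stimulation all differ between the BA table and the others, so their parts in this order cannot be told apart.

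**Figure D1:**
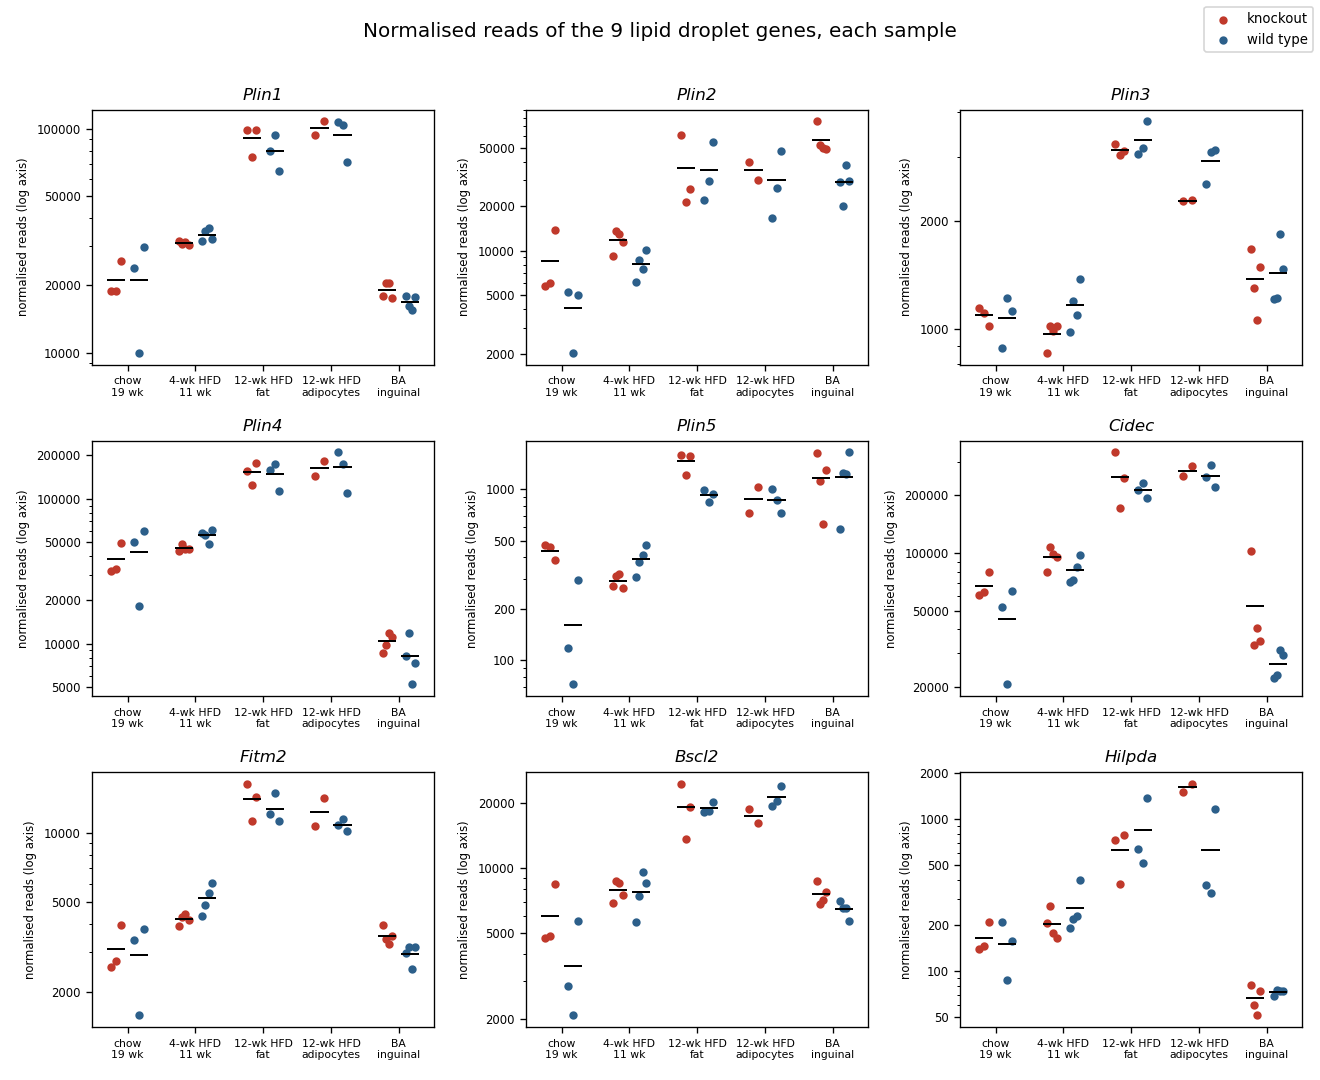
Normalised reads (log axis) of each of the 9 genes in every sample, with knockout left of wild type in each table; points are samples and black bars are means. Knockout and wild type overlap for most genes, and the 4 BA knockout samples lie above all 4 BA wild-type samples for Plin2.

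By limma with Benjamini-Hochberg adjustment over all genes, 0 of the 9 genes passed an adjusted p of 0.05 in any of the 5 tables. Over all genes tested the share that passed was 0% in CD and Epi, 3.46% in HFD (1.01% higher and 2.45% lower in knockout), 0.638% in Adipo (0.546% higher and 0.0922% lower) and 0.0323% in BA. At an unadjusted p under 0.05, limma gave 1 of the 9 in CD (Plin5), 4 in HFD (Plin2, Plin4, Plin5 and Fitm2), 1 in Epi (Plin5), 2 in Adipo (Hilpda and Plin3) and 2 in BA (Plin2 and Cidec). The shares of all genes at that level were 9.61%, 20.8%, 9.21%, 24.2% and 9.02% in the same tables. The quasi-likelihood test of edgeR on recovered reads called 0 of the 9 in each table, where it called 0%, 3.8%, 0%, 0.929% and 0.00808% of all genes. DESeq2 on the same reads called 2 in HFD (Plin2 and Cidec), 1 in Epi (Plin5) and 1 in BA (Plin2), and 0 in CD and Adipo, where it called 10.4%, 3.03%, 2.16%, 5.98% and 12.7% of all genes. The 9 genes had a median log2 fold of 0.19 (CD), -0.25 (HFD), 0.05 (Epi), 0.10 (Adipo) and 0.23 (BA). The medians of all genes tested were 0.11, -0.09, -0.03, -0.04 and 0.01.

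**Figure D2:**
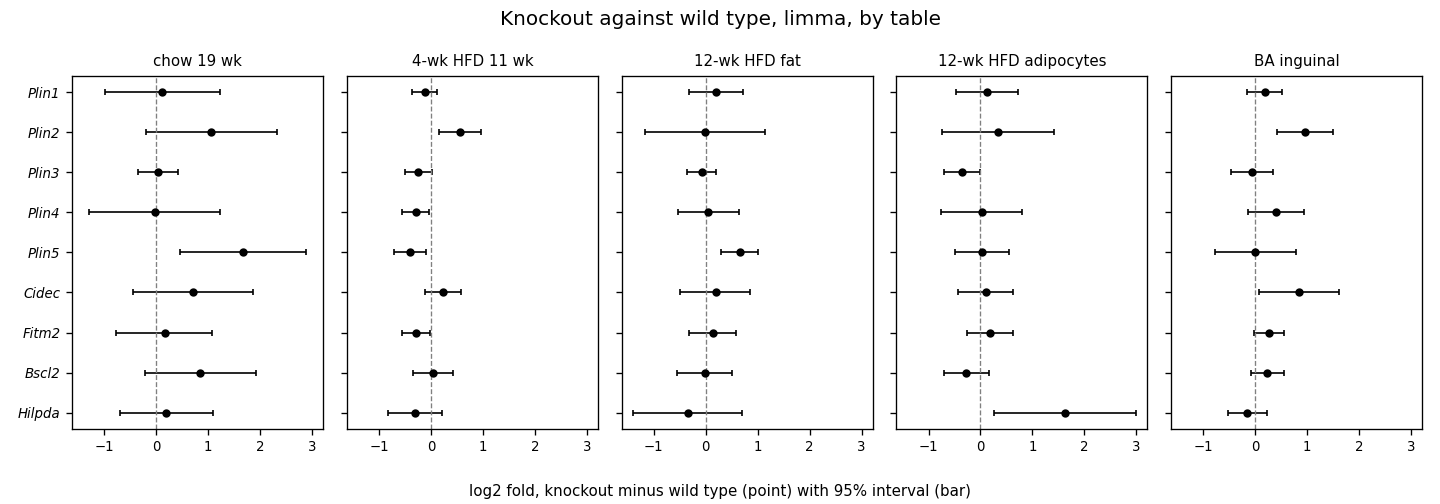
Log2 fold of knockout minus wild type (point) with its 95% interval (bar) from limma for each gene and table. Of 45 intervals 10 lie off 0 before adjustment, among them those of Plin2 in HFD and BA, Plin5 in CD, HFD and Epi, and Hilpda in Adipo.

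Plin2, the perilipin of small droplets and of cells that are loading fat, had a knockout mean above the wild-type mean in all 5 tables, as did Cidec. In Epi the Plin2 ratio of means was only 1.03, and its fitted log2 fold was -0.01. The share of all genes with such a pattern was not counted, and Epi and Adipo samples of 1 number deviated in common. The Plin2 promoter is shown because that gene had the smallest p of the 9 genes in the BA table. The 300 bases run from 250 before to 50 after the start site (RefSeq, GRCm38.p6, chr4:86670010-86670309, minus strand, 5′ to 3′). Capitals mark the nuclear receptor half-site AGGTCA, read on the other strand, and the E-box CACGTG.

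Plin2: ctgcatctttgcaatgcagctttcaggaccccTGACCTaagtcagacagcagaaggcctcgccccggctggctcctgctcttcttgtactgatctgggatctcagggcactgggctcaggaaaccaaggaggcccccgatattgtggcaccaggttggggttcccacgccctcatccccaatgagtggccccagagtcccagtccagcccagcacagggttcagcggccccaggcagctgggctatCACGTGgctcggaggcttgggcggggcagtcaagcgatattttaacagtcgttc

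The half-site AGGTCA, searched on both strands, is in 16.3% of all 32851 RefSeq promoter windows of this length. CACGTG is in 7.15% of them, and the ACGTG core that hypoxia-inducible factors recognise is in 19.6%. The single CACGTG of Plin2 also gives both of its ACGTG matches. None of the windows of the 9 genes holds an exact copy of the spaced repeat AGGTCANAGGTCA on which PPAR gamma and RXR dimers bind. Only 13 of all 32851 windows (0.0396%) hold it, so its absence says nothing about such binding. A match is only a match of letters.

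In BA inguinal fat Plin2 had 75789, 51863, 49541 and 48918 normalised reads in knockout 1 to 4, against 29217, 20073, 38440 and 29629 in wild type 1 to 4. All 4 knockout samples lay above all 4 wild-type samples, and knockout 1 stood above the other knockouts. The log2 fold was 0.96 ± 0.24 (SE; 95% interval 0.42 to 1.49), which did not pass the adjustment (limma, Benjamini-Hochberg adjusted p = 0.199, between 0.00478 and 0.398 over the alternatives run). DESeq2 gave 0.92 with an adjusted p of 0.00478. Without knockout 1 the log2 fold was 0.81, and leaving out any 1 replicate gave 0.79 to 1.10. Plin2 was 1 of 3 of the 9 genes with knockout wholly above wild type in this table, where 3.27% of all genes had that pattern and 2.22% the opposite one. The 10 adipocyte markers were all higher in knockout too, with a median log2 fold of 0.46, although 0 of them passed, and their sums were 676109 to 895505 normalised reads in knockout and 509983 to 641881 in wild type. Of the 7 brown and beige markers 1 was higher and 6 were lower in BA knockout (median log2 fold -0.79), and 0 passed. Their sums were 13087 to 43957 normalised reads in knockout and 20378 to 97053 in wild type. Summed skeletal muscle markers were 2444 in knockout 3 and 2512 in wild type 2, where the other BA samples had 25.3 to 139.5. The part of these contents in the Plin2 difference was not tested, and in bulk tissue more adipocytes and more RNA per adipocyte cannot be told apart.

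In intra-abdominal fat after the short diet (HFD), Plin2 had 9156, 13670.0, 12984 and 11532 normalised reads in knockout 1 to 4, against 6115, 8697, 7503 and 10109 in wild type 1 to 4. Knockout 1 lay inside the wild-type range and the other 3 knockouts lay above it. The log2 fold of Plin2 was 0.55 ± 0.18 (SE; 95% interval 0.15 to 0.96; limma, Benjamini-Hochberg adjusted p = 0.13). On chow (CD), Plin2 had 5739, 5985 and 13888 normalised reads in knockout 1 to 3, against 5263, 2014 and 4977 in wild type 1 to 3. The groups did not overlap, but knockout 3 and wild type 2 stood far from their groups, and knockout 1 and 2 were only just above wild type 1. The log2 fold of Plin2 in CD was 1.06 ± 0.52 (SE; limma, Benjamini-Hochberg adjusted p = 0.539) and 0.61 without wild type 2. Plin2 and Plin5 were the 2 of 9 genes with knockout wholly above wild type in CD, where 12.4% of all genes had that pattern and 4.54% the opposite one.

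After the long diet, Plin2 did not separate the genotypes. It had 61315, 21502 and 26436 normalised reads in Epi knockout 1 to 3, against 21942, 29847 and 54348 in Epi wild type 1 to 3. In adipocytes it had 40251 and 30028 in Adipo knockout 1 and 2, against 16674, 26597 and 47239 in Adipo wild type 1 to 3. Wild type 3 was the highest wild type in each table, and the ranges overlapped. Wild type 3 of both tables was also the highest wild type for Hilpda and the lowest for Plin1 and Plin4. The summed macrophage markers of wild type 3 were 95341 normalised reads in Epi and 19688 in Adipo, while wild type 1 and 2 had 40281 and 45953 in Epi and 4035 and 3068 in Adipo. Its summed adipocyte markers were the lowest of the wild types in both tables, at 2290287 in Epi and 2737888 in Adipo. The part of these contents in the Plin2 and Hilpda values was not tested. The log2 fold of Plin2 was -0.01 ± 0.48 in Epi and 0.33 ± 0.44 in Adipo (SE; limma, Benjamini-Hochberg adjusted p = 0.997 and 0.668).

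Plin5, whose protein links droplets to mitochondria and limits lipolysis in oxidative cells, had knockout samples wholly above wild type in CD and Epi fat, and a lower knockout mean in HFD fat. Its promoter is shown because Plin5 had the smallest p of the 9 genes in CD and in Epi (RefSeq, GRCm38.p6, chr17:56117499-56117798, minus strand, 5′ to 3′). Capitals mark the half-site AGGTCA. No annotated transcript was found to hold the last bases of this window, so it may not be the promoter of the measured transcript. The measured Plin5 transcript holds the last bases of the window of a second start site (chr17:56117249-56117548), which is not printed. That window also holds 1 match to AGGTCA.

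Plin5: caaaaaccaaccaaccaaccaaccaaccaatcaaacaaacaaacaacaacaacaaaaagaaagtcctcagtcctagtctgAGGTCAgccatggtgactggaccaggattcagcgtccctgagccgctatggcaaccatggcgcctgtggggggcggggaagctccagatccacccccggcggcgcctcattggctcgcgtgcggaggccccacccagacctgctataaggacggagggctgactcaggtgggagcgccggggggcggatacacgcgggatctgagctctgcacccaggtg

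On chow, Plin5 had 469.3, 457.7 and 386.2 normalised reads in knockout 1 to 3, against 117.7, 72.4 and 295.0 in wild type 1 to 3. All 3 knockout samples were above all 3 wild-type samples, and wild type 3 was the nearest. The log2 fold of Plin5 in CD was 1.67 ± 0.50 (SE; 95% interval 0.45 to 2.89; limma, Benjamini-Hochberg adjusted p = 0.505). Without wild type 2 it was 1.22, and without wild type 2 and knockout 1 and 2, the libraries with epididymis markers, it was 1.05 with 1 knockout sample left. In Epi, Plin5 had 1588, 1201 and 1569 normalised reads in knockout 1 to 3, against 990.2, 839.8 and 932.9 in wild type 1 to 3. The groups lay apart with little spread inside each. The log2 fold of Plin5 in Epi was 0.65 ± 0.15 (SE; 95% interval 0.29 to 1.01), with a limma Benjamini-Hochberg adjusted p of 0.349 and a DESeq2 adjusted p of 0.0119. Leaving out any 1 replicate gave 0.58 to 0.78. Plin5 was the 1 of 9 genes with knockout wholly above wild type in Epi, a pattern of 7.3% of all genes, against 9.15% for the opposite one. Epididymis markers were also present in Epi knockout 2 and 3 and near 0 in the other Epi samples, with sums of 0 to 61950 normalised reads in knockout and 0 to 27.3 in wild type. Plin5 was 1588 in knockout 1, which had none of them, and 1201 and 1569 in knockout 2 and 3; their part in the Plin5 difference was not tested.

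In the other tables Plin5 took other positions. In HFD it had 272.3, 309.8, 320.3 and 262.8 normalised reads in knockout 1 to 4, against 304.5, 375.8, 410.4 and 473.6 in wild type 1 to 4. Knockout 2 and 3 reached into the wild-type range, and the log2 fold was -0.41 ± 0.14 (SE; limma, Benjamini-Hochberg adjusted p = 0.141). Without wild type 1 the fold was -0.52 and passed (limma, Benjamini-Hochberg adjusted p = 0.0317), in a fit where 8.44% of all genes passed. In adipocytes Plin5 had 725.7 and 1028 normalised reads in knockout, against 997.8, 858.5 and 724.5 in wild type. In BA fat it ranged from 623.8 to 1631 in knockout and 582.5 to 1638 in wild type. The Adipo and BA folds were near 0, at 0.02 ± 0.21 in Adipo and 0.00 ± 0.35 in BA.

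Plin1, the coat of the large adipocyte droplet, had overlapping ranges in the 2 genotypes of every table. It had 30298 to 31730 normalised reads in the 4 HFD knockout samples, against 31454 to 36137 in the 4 wild-type samples. It had 17489 to 20437 in BA knockout and 15538 to 17894 in BA wild type. In CD it had 18861, 18838 and 25724 in knockout, against 23857, 9969 and 29825 in wild type, so that wild type 2 alone set the low end. The CD log2 fold of Plin1 was 0.12 ± 0.45 with all samples and -0.35 without wild type 2 (SE of the first; limma, Benjamini-Hochberg adjusted p = 0.933 and 0.485). The other log2 folds of Plin1 lay between -0.12 in HFD and 0.20 in Epi.

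Plin4, an abundant perilipin of white fat, had 43949, 48535, 44824 and 45252 normalised reads in HFD knockout, against 58485, 56314, 48545 and 61295 in HFD wild type. The highest knockout and the lowest wild type were nearly equal, and apart from that pair the groups were distinct. The log2 fold was -0.29 ± 0.12 (SE; limma, Benjamini-Hochberg adjusted p = 0.204). Plin4 was the 1 of 9 genes with knockout wholly below wild type in HFD, where 10% of all genes had that pattern and 4.03% the opposite one. Elsewhere the Plin4 folds were 0.40 ± 0.24 in BA and within 0.05 of 0 in CD, Epi and Adipo.

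Plin3, a perilipin that moves between cytosol and nascent droplets, had 2260.0 and 2278 normalised reads in Adipo knockout, against 2527, 3091 and 3149 in Adipo wild type. The groups did not overlap, and the log2 fold was -0.36 ± 0.15 (SE; limma, Benjamini-Hochberg adjusted p = 0.205). With 2 knockouts against 3 wild types, 48% of all genes did not overlap between genotypes (20.8% wholly higher in knockout and 27.3% wholly lower), and of the 9 genes Hilpda was wholly higher and Plin3 and Bscl2 wholly lower. The Plin3 fold was -0.25 ± 0.12 in HFD and within 0.08 of 0 in CD, Epi and BA.

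The make-up of the perilipin family was set within each sample, which removes differences in adipocyte content as far as they move all 5 genes alike. These shares and ratios were looked at after the values were seen and carry no test. Plin2 made up 19.2% to 28.7% of perilipin transcripts per length in CD knockout, against 10.9% to 13.7% in CD wild type. In HFD it made up 20.1% to 26.8% in knockout and 13% to 19.1% in wild type. In BA fat Plin2 was the dominant perilipin, at 72.5% to 81.5% in knockout and 54.9% to 73% in wild type. Plin4 took the complement in intra-abdominal fat, with 33.9% to 35.4% in CD knockout and 38.7% to 43.4% in CD wild type, and 29.7% to 31.7% in HFD knockout and 32.8% to 40.7% in HFD wild type. Shares sum to 100%, so a larger Plin2 share lowers the others by construction. In Epi the Plin2 share averaged 23.1 ± 9.09% in knockout and 25.3 ± 12.4% in wild type (SD, n = 3 each), and in Adipo 22.3 ± 5.78% in knockout (SD, n = 2) and 20.9 ± 12.9% in wild type (SD, n = 3).

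**Figure D3:**
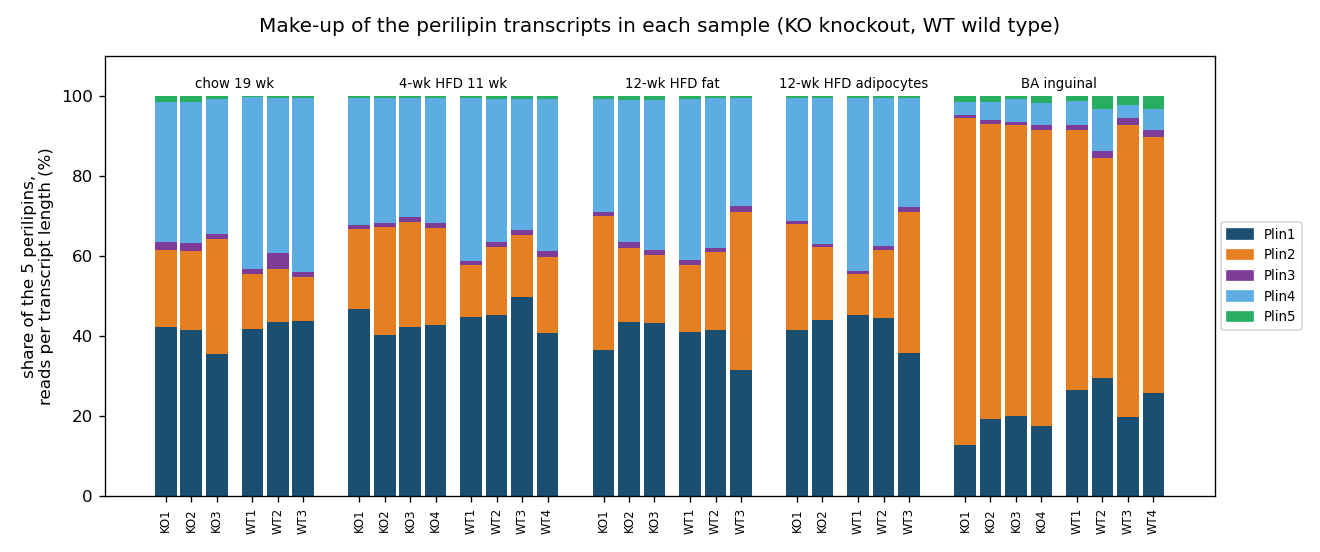
Share of each perilipin in the 5 perilipin transcripts per length (percent), 1 bar per sample, with knockout left of wild type in each table. Plin2 takes 19.2% to 28.7% of the bars of CD knockout against 10.9% to 13.7% in CD wild type, and over 50% of every bar in the BA table.

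Taken relative to Plin1, CD wild type 2 no longer stood apart for Plin2 and Cidec. The ratio of Plin2 to Plin1 per length was 0.454, 0.474 and 0.806 in CD knockout, against 0.329, 0.301 and 0.249 in CD wild type. The ratio of Cidec to Plin1 was 5.26, 5.43 and 5.05 in CD knockout, against 3.6, 3.39 and 3.47 in CD wild type. Both ratios were higher in all 3 knockouts, as were those of Plin5 and Bscl2, so that 4 of the 8 other genes were wholly higher relative to Plin1. Over all genes tested in CD, 2.97% were wholly higher in knockout relative to Plin1 and 3.92% wholly lower. CD knockout 1 and 2 were the nearest pair of replicates and both held epididymis markers, so the 3 knockouts may not be 3 independent samples. The 4 genes have chosen transcripts of 1720 to 1986 bases, and Plin1 has one of 2817. The longer Plin3, Plin4 and Fitm2 and the shorter Hilpda (982 bases) overlapped between genotypes. Reads in the 5′ part, described below, made up a smaller mean share in CD knockout. They were 13.1%, 21.3% and 9.65% for Plin1, Plin2 and Cidec, against 17.5%, 27.3% and 12.5% in CD wild type. The part of this in the ratios was not tested.

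In HFD the ratio of Plin2 to Plin1 was 0.431, 0.666, 0.62 and 0.568 in knockout, against 0.29, 0.372, 0.31 and 0.468 in wild type, so knockout 1 lay under wild type 4. In BA it was 6.31, 3.79, 3.62 and 4.17 in knockout, against 2.44, 1.86, 3.69 and 2.49 in wild type, so only knockout 3 lay under wild type 3. Of the 8 genes, 0 were wholly higher or lower relative to Plin1 in HFD, Adipo and BA, where 11.8%, 36.1% and 7.72% of all genes were. In Epi 1 of the 8 was, Plin5, with ratios of 0.0224 to 0.0227 in knockout and 0.0126 to 0.0205 in wild type. Of all genes in Epi 12.6% were wholly higher or lower, with 1.89% higher and 10.8% lower.

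**Figure D4:**
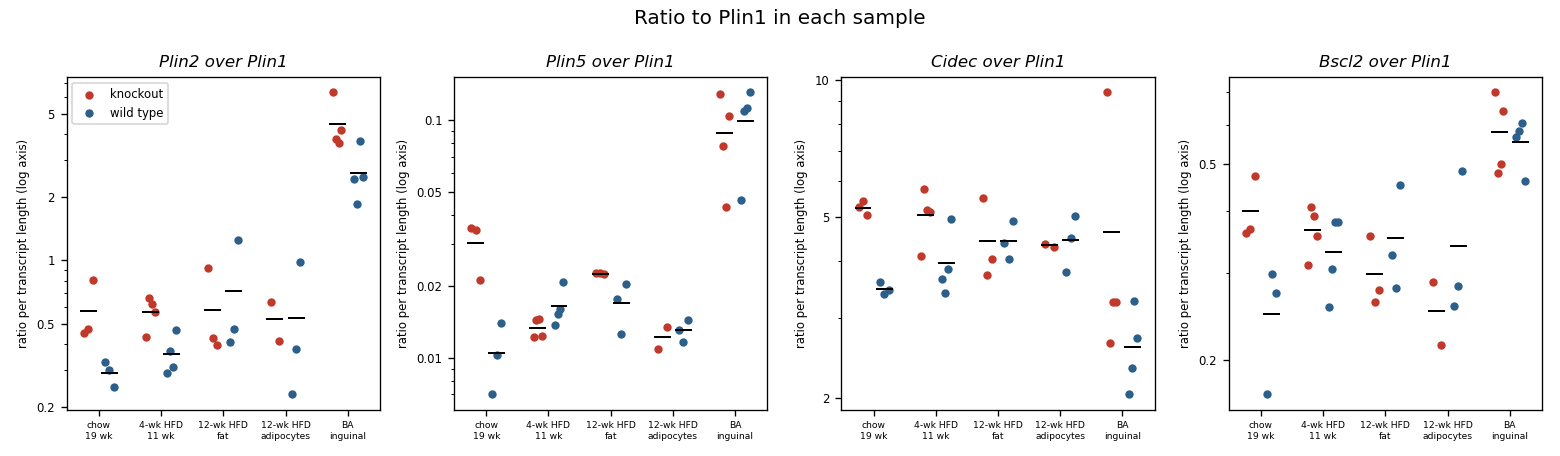
Ratio of Plin2, Plin5, Cidec and Bscl2 to Plin1 per transcript length (log axis) in every sample, with knockout left of wild type; points are samples and bars are means. In CD the 3 knockouts lie above the 3 wild types in all 4 panels, and in Epi only Plin5 separates the genotypes.

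Cidec had higher knockout means in all 5 tables, a pattern not counted over all genes, but with broad overlap in 4 of them. In BA fat it had 102869, 33011, 40530 and 34811 normalised reads in knockout 1 to 4, against 22307, 22975, 31077 and 29340 in wild type 1 to 4. Knockout 1 stood far above every other sample, and the remaining knockouts lay just above the wild types. The log2 fold was 0.84 ± 0.34 (SE; limma, Benjamini-Hochberg adjusted p = 0.495), and 0.46 without knockout 1. In CD it had 60632, 62464 and 79294 normalised reads in knockout, against 52404, 20659 and 63114 in wild type, with a log2 fold of 0.71 ± 0.47 that was 0.22 without wild type 2. In HFD it had 79695 to 107603 in knockout and 70390 to 97298 in wild type, a log2 fold of 0.23 ± 0.15 by limma and 0.32 by DESeq2 (Benjamini-Hochberg adjusted p = 0.406 and 0.039). The Cidec folds in Epi and Adipo were 0.19 ± 0.28 and 0.10 ± 0.22.

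Fitm2 and Bscl2 act at the endoplasmic reticulum, where FIT2 helps droplets to bud and seipin organises their assembly. Fitm2 had 3955, 3417, 3257 and 3548 normalised reads in BA knockout, against 2960, 3151, 2539 and 3156 in BA wild type. All 4 knockouts were above all 4 wild types by a small margin, with a log2 fold of 0.27 ± 0.13 (SE; limma, Benjamini-Hochberg adjusted p = 0.602). In HFD the Fitm2 fold had the other sign, at -0.29 ± 0.12 (SE; limma, Benjamini-Hochberg adjusted p = 0.21), with 3894 to 4414 normalised reads in knockout and 4316 to 6039 in wild type. Bscl2 had 4754, 4833 and 8438 normalised reads in CD knockout, against 2830, 2077 and 5673 in CD wild type, and a log2 fold of 0.85 ± 0.43 (SE; limma, Benjamini-Hochberg adjusted p = 0.544). The Bscl2 folds in the other tables lay between -0.28 in Adipo and 0.23 in BA, and the overlap of its transcript with Gng3 limits all of them.

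Hilpda encodes a small droplet protein, induced by low oxygen, that inhibits the lipase ATGL. Its promoter is shown because Hilpda had the largest log2 fold of the 9 genes in adipocytes (RefSeq, GRCm38.p6, chr6:29272376-29272675, plus strand, 5′ to 3′). Capitals mark ACGTG, the only form of the core that was searched, and the window of a second Hilpda start site holds no ACGTG.

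Hilpda: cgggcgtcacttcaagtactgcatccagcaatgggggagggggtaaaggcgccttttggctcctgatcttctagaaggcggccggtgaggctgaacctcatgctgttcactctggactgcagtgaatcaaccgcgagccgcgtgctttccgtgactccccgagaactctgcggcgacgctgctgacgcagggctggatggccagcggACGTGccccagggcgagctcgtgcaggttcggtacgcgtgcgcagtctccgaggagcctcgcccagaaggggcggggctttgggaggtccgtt

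Isolated adipocytes had 1511 and 1706 normalised reads of Hilpda in knockout, against 366.3, 328.6 and 1168 in wild type 1 to 3. Both knockouts were above all 3 wild types, and wild type 3 stood above the other wild types. The log2 fold was 1.62 ± 0.55 (SE; 95% interval 0.26 to 2.99; limma, Benjamini-Hochberg adjusted p = 0.16, between 0.00269 and 0.478 over the alternatives run). Without wild type 3 it was 2.21 and passed (limma, Benjamini-Hochberg adjusted p = 0.00286), in a fit where 5.2% of all genes passed. Summed macrophage markers were 10233 and 5172.5 normalised reads in Adipo knockout, against 4035, 3068 and 19688 in wild type 1 to 3, so wild type 3 was the highest. The same knockouts held the endothelial markers described above, and the part of either marker list in the Hilpda difference was not tested. In Epi fat Hilpda had 722.5, 375.2 and 789.2 normalised reads in knockout, against 630.9, 516.8 and 1373 in wild type, with wild type 3 again the highest. The Epi log2 fold was -0.35 ± 0.44. In BA fat Hilpda was the lowest of the 9 genes, at 51.3 to 81.8 normalised reads in knockout and 68.9 to 75.4 in wild type.

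The difference in the effect of genotype between 2 tables was tested for chow against short diet and for adipocytes against whole fat. In both contrasts 0 of the 9 genes passed by limma, where 0% and 1.67% of all genes did. At an unadjusted p under 0.05 there was 1 gene in the diet contrast (Plin5) and 2 in the adipocyte contrast (Hilpda and Plin5). For Plin5 the HFD effect minus the CD effect was -2.08 ± 0.48 on the log2 scale (SE; 95% interval -3.12 to -1.05; limma, Benjamini-Hochberg adjusted p = 0.177, between 0.00423 and 0.393 over the alternatives run). It passed at -2.17 without CD knockout 3 and at -2.64 without CD wild type 3, in fits where 5.31% and 0.0436% of all genes passed. The first of these fits keeps only CD knockout 1 and 2, the nearest pair of replicates, which may not be independent samples. The main fit and the second also count that pair as 2 samples. Age as well as diet differs between the CD and HFD tables, so the parts of age and diet cannot be told apart. For Hilpda the Adipo effect minus the Epi effect was 1.98 ± 0.78 (SE; limma, Benjamini-Hochberg adjusted p = 0.303), and it passed at 2.56 without Adipo wild type 3, where 4.71% of all genes passed. For Plin5 the same difference was -0.63 ± 0.27 (SE; limma, Benjamini-Hochberg adjusted p = 0.34).

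Some entries of the deposited tables count only the 5′ part of these genes, which gives a view of where along the transcript the reads lay. For Plin2, a short annotated form of 683 bases (Plin2-205, 5 exons) lies within the 5′ part of the chosen form of 1888 bases (Plin2-201, 8 exons). Its reads came to 18.9% to 22.6% of those of the chosen form in CD knockout and 24% to 30.7% in CD wild type. In HFD they came to 36.7%, 35.1%, 36.3% and 35.3% in knockout, against 35.3%, 36.4%, 30.9% and 24.1% in wild type, with wild type 3 and 4 low. Plin1 and Cidec had the same 2 HFD wild types lowest. A low share is the pattern of reads crowded at the 3′ end. The part of RNA quality in the folds, in the perilipin make-up and in the ratios to Plin1 was not tested. Tested on the 5′ forms, an alternative chosen after seeing the data, the HFD fold of Plin2 was 0.75 ± 0.15 and passed (SE; limma, Benjamini-Hochberg adjusted p = 0.0328), in a fit where 3.47% of all genes passed. The 5′ folds of Plin2 were 0.70 ± 0.42 in CD and 0.87 ± 0.26 in BA. Those of Cidec were 0.39 ± 0.12 in HFD and 0.75 ± 0.35 in BA, and none of these passed. In HFD the folds of Plin1 and Cidec were also higher on the 5′ form (0.08 ± 0.13 against -0.12 for Plin1, 0.39 against 0.23 for Cidec). The 5′ value is the chosen-form value times the share, so these shifts follow from the shares by construction. The HFD pass of Plin2 on the 5′ form therefore carries the low shares of wild type 3 and 4. What made those shares low was not tested.

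**Figure D5:**
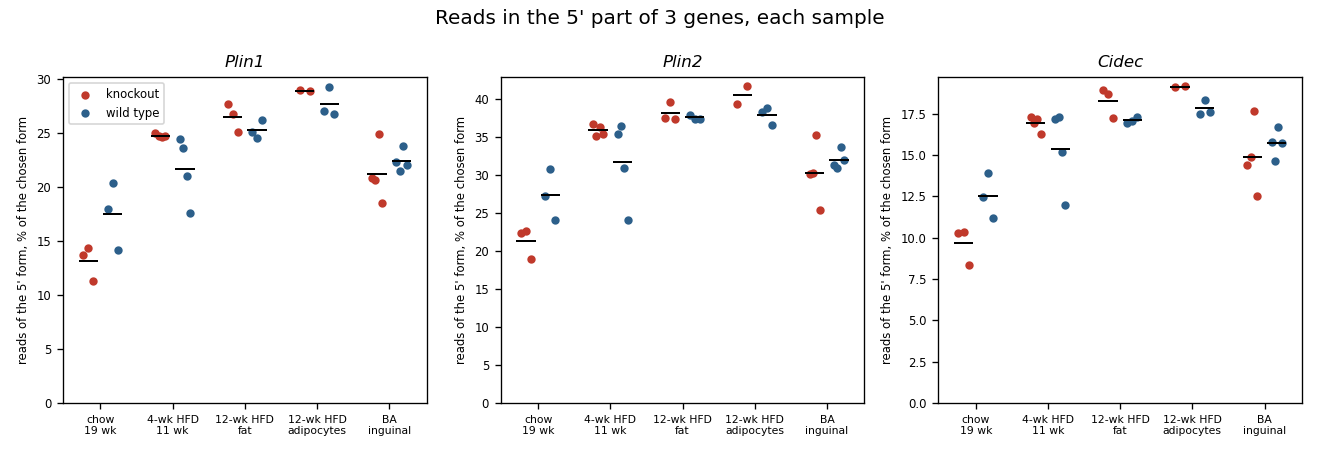
Reads of a short 5′ form as a percent of those of the chosen form for Plin1, Plin2 and Cidec in every sample, with knockout left of wild type; points are samples and bars are means. Shares are lowest in CD, where Plin2 lies at 18.9% to 22.6% in knockout and 24% to 30.7% in wild type.

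Of 34 other genes of lipid droplets and triglyceride storage, 30 to 33 were tested in each table, and 1 rose and 1 fell in HFD by limma while 0 passed elsewhere. Mogat2, which makes diacylglycerol from monoacylglycerol, averaged 607.7 ± 150.5 normalised reads in HFD knockout and 202.8 ± 80.5 in HFD wild type (SD, n = 4 each), a log2 fold of 1.63 ± 0.29 (SE; limma, Benjamini-Hochberg adjusted p = 0.0204). Mettl7b, a droplet-associated methyltransferase, averaged 144.5 ± 2.25 in knockout and 289.4 ± 72.2 in wild type, and fell by 0.97 on the log2 scale (limma, Benjamini-Hochberg adjusted p = 0.014). Mogat2 had larger folds that did not pass by limma in CD (2.53 ± 0.40; 231.5 to 350.6 normalised reads in knockout and 26.4 to 69.1 in wild type) and in BA (2.37 ± 0.38; 427.9 to 1008 in knockout and 78.8 to 223.2 in wild type). Their limma Benjamini-Hochberg adjusted p-values were 0.505 and 0.077, while DESeq2 called both (adjusted p = 1.76e-06 in CD and 9.96e-07 in BA). In Epi and Adipo the Mogat2 folds had the other sign, -1.16 ± 0.54 and -1.18 ± 0.44. The list's median log2 fold lay between -0.09 and 0.24 over the 5 tables. Among the genes of smallest p that did not pass were Acsl3 in CD (0.94 ± 0.24), Mettl7a1 in Epi (0.97 ± 0.20), Mettl7b in Adipo (-0.92 ± 0.27) and Dgat2 in BA (0.60 ± 0.18). Of these, DESeq2 called Acsl3, Mettl7a1 and Dgat2 (adjusted p = 0.0149, 0.000856 and 0.0104). In HFD the limma call of Mogat2 was lost without knockout 2, 3 or 4 or wild type 4, and that of Mettl7b without knockout 3 or 4.

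Of 15 genes for transcription factors, coactivators and corepressors of fat cells, 3 rose in HFD knockout by limma and 0 passed in the other tables. Pparg, the master regulator of adipocytes, averaged 3728 ± 189.4 normalised reads in HFD knockout and 2422 ± 379.6 in HFD wild type (SD, n = 4 each), a log2 fold of 0.63 ± 0.12 (SE; limma, Benjamini-Hochberg adjusted p = 0.0272). Ppargc1b, a coactivator of mitochondrial genes, had a log2 fold of 1.28 ± 0.18 and Tbl1x, a subunit of the NCoR/SMRT complex, one of 0.38 ± 0.09 (SE; limma, Benjamini-Hochberg adjusted p = 0.00661 and 0.0491). The call of Pparg was lost without any 1 knockout or wild type 4, that of Tbl1x without any 1 knockout or wild type 2, 3 or 4, and that of Ppargc1b with the libraries of leading number 2 alone (limma, Benjamini-Hochberg adjusted p = 0.0585). The HFD folds of the 9 droplet genes ranged from -0.41 (Plin5) to 0.55 (Plin2) in the same samples. Values in other tables that did not pass included Ppargc1a in Epi (1.05 ± 0.32), Cebpb in Adipo (0.92 ± 0.25), Cebpa in BA (0.63 ± 0.18) and Tbl1x in CD (0.42 ± 0.16), of which DESeq2 called Cebpb and Cebpa (adjusted p = 0.0122 and 0.0158). Of the marker lists, genes passed only in HFD. Cfd of the adipocyte list and Dio2 of the brown and beige list rose. Cox7a1 of the brown and beige list, Mertk of macrophages and Sox18 of endothelium fell. Of the macrophage markers 8 were higher and 2 lower in HFD knockout (median log2 fold 0.37), so Mertk went against most of its list. Endothelial markers were 1 higher and 5 lower, adipocyte markers 5 and 5, and brown and beige markers 2 and 3.

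The genes nearest to each member were sought over 33 samples and 11824 genes, by Pearson's r of log2 values taken as deviations from the mean of their genotype group in each table. The samples share tables and normalisation, and samples of low adipocyte content weigh heavily, so r is a description. Plin1 was nearest to Lipe (r = 0.936), which encodes hormone-sensitive lipase, Ebf1 (0.934) and Dhtkd1 (0.912). Lipe (0.902) was also among the nearest of Plin4, with Smarcc2 (0.909) and Fgfr1 (0.885). Cidec was nearest to Mgst1 (0.958), Cmbl (0.921) and Slc7a10 (0.914), Fitm2 to Fam213a (0.939), Cebpa (0.934) and Myl1 (0.919), and Bscl2 to Phlda3 (0.922) and Mrap (0.92). Plin2 was nearest to Gyg (0.873), Rnf4 (0.873) and Timm10 (0.87), Plin3 to Rnf5 (0.838), Atp6v1d (0.825) and Vdac2 (0.822), Plin5 to Fars2 (0.833), Cgrrf1 (0.822) and Ung (0.818), and Hilpda to Mitd1 (0.86), Sri (0.856) and Pea15a (0.855).

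Among the 9 genes themselves, Plin1 moved with Plin4 (r = 0.84) and Fitm2 (r = 0.84), and hardly with Plin2 (r = 0.28) or Hilpda (r = 0.06). Plin2 moved with Hilpda (r = 0.72) and Bscl2 (r = 0.70). Plin3 ran opposite to Plin4 (r = -0.54) and Plin1 (r = -0.39).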

How the data were processed

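Messenger RNA of mouse fat and adipocytes was sequenced from stranded libraries, per the labels' protocols. The build GRCm38.p4 and the tools STAR 2.4.0k, bcl2fastq 2.17, HTSeq 0.5.3, DESeq 1.8.3 and SAMtools come from the submitters' processing notes, without roles; no source used here says whether strand was used in counting. The deposited signal per Ensembl transcript is a read count over a per-library size factor, as found from the values: in all libraries the steps gave whole reads for 100% of values (within 0.01 read), and reads were taken as recovered in 96 of 99. The authors' 5 tables were normalised separately. Of the columns, 99 were matched to samples and 1, an adipocyte column with a wild-type name that matched no sample, was left out. Adipo knockout 3 was not analysed here, and whether that column belongs to it is unknown.

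One transcript per gene was used, that with the highest mean level, with symbols and positions from GENCODE M21 on GRCm38, since a read can be listed under several isoforms. Repeat libraries of a replicate (4 each in CD, HFD and BA) differed little beyond sampling noise, and their mean was taken. Genes with a mean of 10 or more were tested with limma 3.58.1 (R 4.3.3, trend and robust) on log2(value + 1), which understates folds of low genes, with Benjamini-Hochberg adjustment over all genes at 0.05. Recovered reads were tested with edgeR 4.0.16 and DESeq2 1.42.0. Epi and Adipo samples of 1 number deviated in common (r of 0.162 to 0.363 in knockout and 0.426 to 0.699 in wild type), so the number was a block in an alternative for that contrast; other numbers did not pair. The tests were checked with simulated data holding 200 changed genes. These were log2 values for limma, and counts for edgeR and DESeq2 in the BA table only.

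The 9 genes and the gene lists were chosen with earlier results of these data known. Named genes were the 9 members, list genes that passed (or up to 2 of smallest p) and the 3 genes of highest r per member, of which 1 is not reported here; Mogat2 in Epi and Adipo was added after its values were seen.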

Additional observations from a re-analysis of the deposited data

Results flagged for a closer look

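Among 36 groups of 4 samples (9 genes, knockout and wild type, HFD and BA), 2 had 1 sample far from the other 3, where chance gives about 1 in 20. Both were BA knockout 1. Its Cidec value of 102869 normalised reads lay 0.892 of the group's range above the next sample, and its Plin2 value of 75789 lay 0.89 of the range above. Both gaps are past the 95% limit of Dixon's test for 4 samples. The same sample had the highest summed adipocyte markers of its table (895505 normalised reads); their part in these values was not tested.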

How the results depend on the processing

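By limma 0 of the 9 genes passed in each table and contrast, and other settings gave at most 2. DESeq2 called 2 in HFD, 1 in Epi and 1 in BA, and the 5′ forms gave 1 in HFD. The replicate block gave 1 in Adipo (Hilpda, 2.21). There it raised the calls over all genes from 90 to 1394 (9.88% of those tested), although knockout and wild-type numbers did not pair. No Adipo knockout 3 was analysed, so wild type 3 is alone in its block and adds nothing to the genotype fold. The block fold of Hilpda is thus the 2.21 found without wild type 3, and not a separate result. In CD, HFD, Epi and BA the block called 0 of the 9. In the adipocyte contrast, where the numbers do pair, the block gave Hilpda 2.05 (limma, Benjamini-Hochberg adjusted p = 0.0828) and changed no call. Leaving out 1 replicate gave 0 to 1 in HFD, Adipo and both contrasts, and 0 in CD, Epi and BA. TMM scaling moved the median of all genes from 0.11 to 0.01 in CD, from -0.09 to 0.00 in HFD and from -0.18 to 0.02 for HFD minus CD. Apart from the Adipo block, the cause of these changes was not tested.

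Each log2 fold was compared with its value under each alternative, which gave 1268 comparisons. Of these, 1157 kept direction and side of the threshold, 22 gained a call and 27 lost one (all list genes in HFD). The other 62 changed sign, often the same fold under several alternatives, and none of the sign changes was a call. In CD these were Plin3 (-0.07 with TMM, -0.08 with edgeR, -0.09 with DESeq2, -0.01 with the libraries of leading number 1), Plin1 (-0.08 with edgeR, -0.09 with DESeq2, -0.05 without wild type 2 and knockout 1 and 2, -0.29 with the 5′ form), Fitm2 (-0.002 with DESeq2) and Plin4 (0.08 with knockout 1 and 2 averaged). In HFD they were Plin1 (0.08, 5′ form) and Bscl2 (-0.04 without wild type 1 and knockout 1). In Epi they were Plin2 (0.004 with TMM, 0.06 with edgeR and DESeq2, 0.01 with the 5′ form) and Bscl2 (0.03 with edgeR and DESeq2). In Adipo under the replicate block, with the same folds as without wild type 3, they were Plin1 (-0.07), Plin4 (-0.25) and Plin5 (-0.10). In BA they were Plin5 (-0.02 with TMM, -0.05 with edgeR, -0.04 with DESeq2 and with leading number 4) and Hilpda (0.03 with leading number 4).

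Folds that changed sign when 1 replicate was left out ranged in CD from -0.35 to 0.44 (Plin1), -0.10 to 0.13 (Plin3), -0.56 to 0.31 (Plin4), -0.23 to 0.39 (Fitm2) and -0.16 to 0.47 (Hilpda); in HFD from -0.10 to 0.15 (Bscl2); in Epi from -0.46 to 0.35 (Plin2), -0.14 to 0.01 (Plin3), -0.13 to 0.19 (Plin4), -0.05 to 0.43 (Cidec), -0.22 to 0.20 (Bscl2) and -0.64 to 0.07 (Hilpda); in Adipo from -0.07 to 0.23 (Plin1), -0.03 to 0.72 (Plin2), -0.25 to 0.21 (Plin4), -0.23 to 0.27 (Plin5) and -0.02 to 0.38 (Fitm2); and in BA from -0.16 to 0.07 (Plin3) and -0.30 to 0.28 (Plin5). In HFD, Mogat2 lost the call without knockout 2, 3 or 4 or wild type 4 (1.51 to 1.65), Mettl7b without knockout 3 or 4 (-0.96 in both), Pparg without any 1 knockout or wild type 4 (0.61 to 0.66), and Tbl1x without any 1 knockout or wild type 2, 3 or 4 (0.35 to 0.42). The other lost calls in HFD were Pparg under the replicate block (adjusted p = 0.0508), Ppargc1b with leading number 2 alone (0.0585), and Tbl1x under the block, without the filter, without trend and robust moderation, with leading number 1, 3 or 4 alone, and without wild type 1 and knockout 1 (0.0609 to 0.0975).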
